A study of Mus musculus with 16 samples.

Results

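Metallothioneins and zinc transport genes were followed in mouse hearts 12 h after endotoxin. The set was chosen by name and comprised 8 of the 55278 gene symbols in the tables. It held the metallothionein genes Mt1 and Mt2, the zinc importer genes Slc39a14, Slc39a8 and Slc39a10, the exporter genes Slc30a1 and Slc30a10, and Mtf1, which encodes a zinc-sensing transcription factor. All 8 were found in the tables, and 7 passed the filter on low counts. Slc30a10 did not.

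The mice were C57BL/6J males of 8 to 12 weeks, and the RNA was that of the heart. In Ppara-Flox mice the Ppara gene, which encodes the fatty acid-sensing nuclear receptor PPARα, was floxed. In PPARα-deficient mice it was lost from cardiomyocytes. Each genotype was given lipopolysaccharide (LPS, a bacterial endotoxin) by intraperitoneal injection, 5 mg/kg, while controls had saline buffered with phosphate (PBS). Hearts were collected at 12 h. There were 4 libraries in each of the 4 groups, 16 in all. The labels do not name the Cre driver, and no group is labelled as carrying Cre alone, so effects of Cre and of the deletion cannot be told apart. The labels number the libraries of a group without saying how the mice were housed or handled, so p-values measure the spread between these libraries.

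Metallothioneins are small cysteine-rich proteins that bind zinc and copper and buffer the free metal in a cell. Their genes are known to respond to metals, glucocorticoids and inflammatory cytokines. ZIP proteins, encoded by Slc39a genes, carry zinc into the cytosol, and ZnT proteins, encoded by Slc30a genes, carry it out of the cytosol or into organelles. MTF-1 binds metal response elements in DNA when zinc is plentiful and switches on metallothionein genes and Slc30a1.

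Library totals in the deposited tables of estimated counts lay between 65569134 and 75436023. Multiples of 4 were over-represented among low values, so 1 read pair was taken to be worth about 4 counts, which gives 16392284 to 18859006 pairs. Levels are given in CPM, the count scaled to a common library size with TMM factors, as mean ± SD over 4 libraries. Differences are log2 fold changes from edgeR's quasi-likelihood test over all 18713 tested genes, with the standard error (SE) or 95% interval, n = 4 per group, and a Benjamini-Hochberg adjusted p called under 0.05. As a check of the labels, Ppara under PBS had 50.2 ± 9.86 CPM with the floxed gene and 14.6 ± 2.58 CPM with the deletion (edgeR adjusted p = 0.00287). After LPS the respective levels were 11.3 ± 3.31 and 7.98 ± 3.38 CPM (edgeR adjusted p = 0.651). The LPS groups overlapped, so Ppara separates the genotypes under PBS only. Ppara itself fell after LPS in Ppara-Flox hearts (log2 fold change -2.15, edgeR adjusted p = 1.25e-05). It also fell in PPARα-deficient hearts, where the treatments overlapped (-0.87, edgeR adjusted p = 0.0188). Summed over 6 cardiomyocyte markers, levels were 50904 to 62223 CPM in the 8 PBS and 27908 to 36372 CPM in the 8 LPS libraries. Summed over 6 neutrophil markers they were 1.27 to 8.96 CPM and 20 to 45.8 CPM, over 5 smooth muscle and pericyte markers 680 to 785 CPM and 343 to 430 CPM, and over 6 macrophage markers 207 to 274 CPM and 95.6 to 157 CPM. The macrophage markers went both ways: in each genotype 3 fell, Lyz2 from 108 ± 2.74 to 23.3 ± 4.94 CPM in Ppara-Flox hearts, while Cd68 rose (0.54 and 0.71 on the log2 scale) and Adgre1 and C1qa were not called. Of the smooth muscle and pericyte markers 4 of 5 fell in each genotype. Of the cardiomyocyte markers 6 of 6 fell in Ppara-Flox and 5 of 6 in PPARα-deficient hearts. Tnnt2 was at 5939 ± 585 CPM in PPARα-deficient hearts under PBS and at 6063 ± 209 CPM after LPS. Myh6 alone was at 35609 ± 1627 CPM in Ppara-Flox PBS hearts. Over 5 endothelial markers the sums were 754 to 930 CPM (PBS) and 673 to 817 CPM (LPS), with 1 falling in each genotype. Over 5 fibroblast markers they were 573 to 652 CPM and 525 to 698 CPM, while 1 rose and 3 fell. The 4 hepatocyte markers summed to at most 1.02 CPM in any library, with Serpina1c at 0 throughout. Of all genes, 20.2% were called higher and 19.1% lower after LPS in Ppara-Flox hearts, and 19.4% and 18.3% in PPARα-deficient hearts. The 1 of 5 endothelial markers that fell is near that share, so it is no result about endothelial cells. The part of these marker shifts in the results that follow was not tested. The islet genes Ins1, Ins2 and Gcg had 0 counts in every library. In bulk tissue, fewer cells of a type and less RNA per cell cannot be told apart. The numbers in the column headers ran from 957 to 1075 for PBS and from 1739 to 1769 for LPS libraries, so LPS and whatever those numbers stand for cannot be told apart.

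Both metallothionein genes rose after LPS in each genotype. Mt1 lies on chromosome 8 (94179082 to 94180327, plus strand, protein coding, GRCm38). It stood at 118, 116, 142 and 120 CPM in Ppara-Flox hearts given PBS and at 1244, 1486, 1191 and 1036 CPM in those given LPS. In PPARα-deficient hearts it stood at 77.3, 121, 98.3 and 107 CPM under PBS and at 1453, 1082, 1059 and 956 CPM after LPS. Every LPS library lay above every PBS library, and the genotypes overlapped under each treatment. The rise was 9.99-fold in Ppara-Flox hearts (log2 fold change 3.32 ± 0.16 SE, adjusted p = 4.32e-10) and 11.3-fold in PPARα-deficient hearts (3.49 ± 0.16 SE, adjusted p = 3.18e-10).

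Mt2 lies 5513 bases upstream of Mt1 on the same strand (chromosome 8, 94172664 to 94173568, protein coding). It started lower and rose further. Ppara-Flox hearts had 15.3, 13, 14.5 and 20.5 CPM under PBS and 676, 761, 600 and 509 CPM after LPS. PPARα-deficient hearts had 6.53, 14.4, 14.6 and 27.0 CPM under PBS and 864, 647, 547 and 472 CPM after LPS. Again every LPS library lay above every PBS library, and the PPARα-deficient PBS group was the most spread, over 4.13-fold. The rise was 40.2-fold in Ppara-Flox hearts (5.33 ± 0.36 SE, adjusted p = 1.16e-08) and 40.5-fold in PPARα-deficient hearts (5.34 ± 0.36 SE, adjusted p = 1.27e-08). Together the transcripts of Mt1 and Mt2 went from 0.0140% ± 0.00122 to 0.188% ± 0.0292 of the scaled library in Ppara-Flox hearts. Ranked by mean CPM among all symbols of that genotype, Mt1 stood at 927 under PBS and 63 after LPS, and Mt2 at 6582 and 135.

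**Figure D1:**
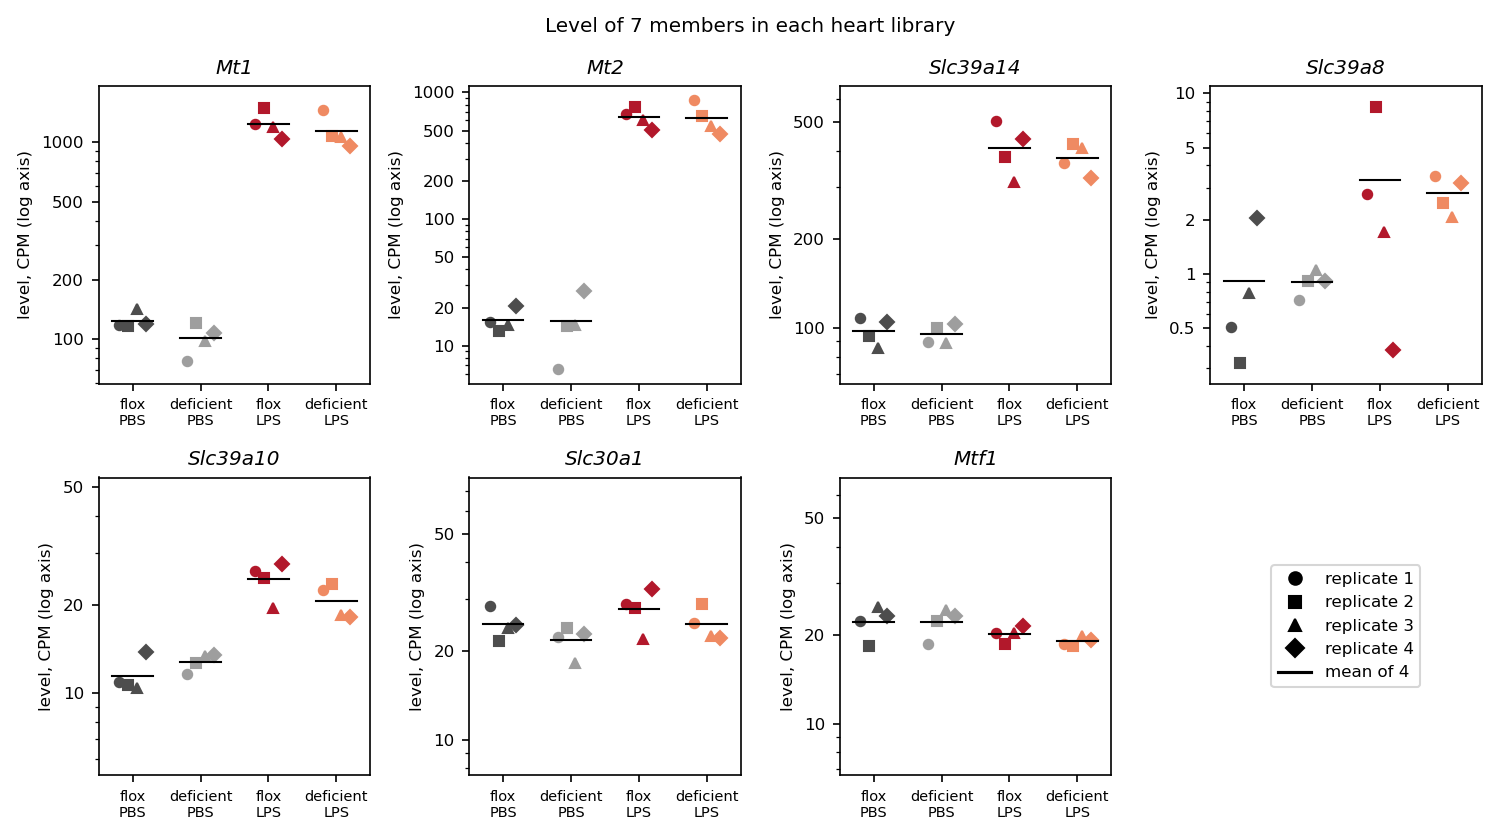
Level in CPM (log axis) of 7 genes in each of the 16 heart libraries; symbols mark the replicate number and lines the mean of 4. Mt1, Mt2, Slc39a14 and Slc39a10 have all LPS libraries above all PBS libraries in both genotypes, while Slc39a8 spreads over 22.3-fold among the 4 Ppara-Flox LPS libraries.

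PPARα-deficient PBS replicate 4 had the highest Mt2 level of the 8 PBS libraries. The same library had 8.96 CPM summed over neutrophil markers, against 1.27 to 3.52 CPM in the other PBS libraries, and 32.2 CPM of the cytokine-response gene Socs3, against 5.32 to 8.70 CPM. The part of these in the Mt2 level was not tested. Without that library the Mt2 rise in PPARα-deficient hearts was 5.74 on the log2 scale. Within each LPS group, Mt1 and Mt2 ranked the 4 libraries in the same order, the highest being replicate 2 in Ppara-Flox and replicate 1 in PPARα-deficient hearts and the lowest replicate 4 in both.

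The ratio of Mt2 to Mt1 was higher in the LPS libraries. Under PBS the estimated counts of Mt2 were 0.129, 0.112, 0.102 and 0.171 of those of Mt1 in Ppara-Flox hearts, and after LPS 0.543, 0.512, 0.504 and 0.491. In PPARα-deficient hearts the ratio was 0.151 ± 0.0719 under PBS and 0.551 ± 0.0535 after LPS. The ratio was higher in all 8 LPS libraries than in any PBS library. On the log2 scale it differed by 2.02 ± 0.17 (SE) in Ppara-Flox and by 1.98 ± 0.34 (SE) in PPARα-deficient hearts (exact permutation test, two-sided, p = 0.0286 for each, the smallest that 4 against 4 allows). Adjusted over the 12 ratio comparisons made, these exact p-values were 0.0857, which does not pass 0.05, and the ratio was chosen after the values were seen.

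Whether the reads counted for Mt2 came from it alone cannot be told from these tables. The antisense gene Gm45774 (chromosome 8, 94170748 to 94173412, minus strand) overlaps its exons, and 45.8% of the 50-base words of the Mt2 transcripts also occur, reverse-complemented, in Gm45774. None of the words of Mt1 occurred in a transcript of another gene. The library kit was stranded per the labels, but the strand setting of the counting is not given in the sources used here. Gm45774 was at 2.63 ± 0.368 CPM under PBS and 113 ± 21.9 CPM after LPS in Ppara-Flox hearts (5.42 ± 0.36 SE, edgeR adjusted p = 1.01e-08). Its counts were 0.152 to 0.234 of those of Mt2 in all 16 libraries. With the counts of both genes added, the ratio to Mt1 was higher after LPS by 2.03 and 1.95 on the log2 scale in the respective genotypes.

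**Figure D2:**
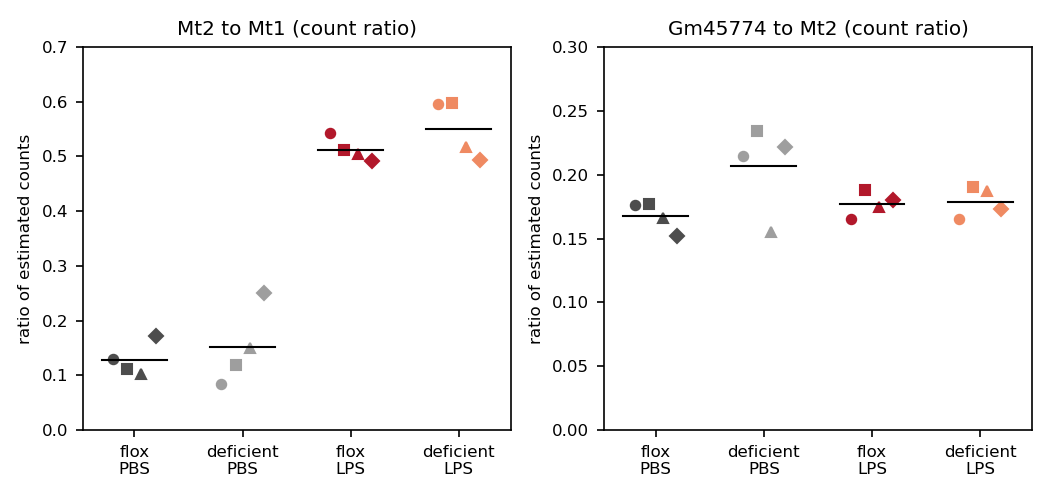
Ratio of estimated counts per library (linear axis from 0), Mt2 to Mt1 on the left and the antisense gene Gm45774 to Mt2 on the right, with symbols for replicate numbers and lines for the mean of 4. The Mt2 to Mt1 ratio is 0.0844 to 0.251 in the PBS and 0.491 to 0.598 in the LPS libraries, and the right-hand groups overlap between treatments.

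The sequence upstream of the metallothionein genes and of Slc30a1 is shown because these are textbook MTF-1 targets and only the metallothioneins passed the test. The windows run from 250 bases before the RefSeq start of each gene (build GRCm38.p6), trimmed by 7 bases for Mt1 and 14 for Slc30a1 where GENCODE places the first exon further upstream. They cover chr8:94172368-94172617 for Mt2, chr8:94178839-94179081 for Mt1 and chr1:191906531-191906766 for Slc30a1, all on the plus strand. Capitals mark matches to the core of the metal response element, searched as TGCACNC and TGCGCNC on both strands.
Mt2: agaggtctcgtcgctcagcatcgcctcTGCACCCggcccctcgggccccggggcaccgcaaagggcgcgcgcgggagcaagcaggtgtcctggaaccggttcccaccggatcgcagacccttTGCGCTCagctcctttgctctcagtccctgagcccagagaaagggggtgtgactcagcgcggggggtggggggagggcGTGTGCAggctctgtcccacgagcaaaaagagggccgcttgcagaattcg
Mt1: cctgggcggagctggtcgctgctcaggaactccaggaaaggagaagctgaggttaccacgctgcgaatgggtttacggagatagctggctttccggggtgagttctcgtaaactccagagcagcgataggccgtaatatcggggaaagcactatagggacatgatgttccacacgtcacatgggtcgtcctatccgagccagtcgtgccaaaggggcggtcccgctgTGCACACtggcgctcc
Slc30a1: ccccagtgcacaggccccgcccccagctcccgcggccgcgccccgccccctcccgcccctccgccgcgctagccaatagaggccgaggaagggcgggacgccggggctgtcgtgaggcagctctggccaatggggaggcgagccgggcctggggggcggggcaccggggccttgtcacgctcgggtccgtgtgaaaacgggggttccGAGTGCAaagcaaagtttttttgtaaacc
Mt2 had 3 matches, Mt1 had 1 and Slc30a1 had 1. The windows are not placed alike, so these counts are not directly comparable. The Mt2 window ends at 94172617, short of the GENCODE start of Mt2 at 94172664, and overlaps an exon of Gm45774. Of 32851 RefSeq windows of 250 bases, 21.4% held at least 1 match and 1.26% held 3 or more. Annotated starts of Mt1 spread over 159 bases, from 94179082 to 94179241, and that stretch held 4 further matches. The Mt1 window also held a match to the palindromic consensus of the glucocorticoid response element, found in 0.387% of windows and lying 94 to 82 bases before the RefSeq start. The STAT site TTCNNNGAA (7.02% of windows) had no match in these 3 windows. Of the other genes, Slc30a10 had 3 metal response element matches of which 2 overlap on opposite strands, and Mtf1 and Slc39a10 had 0. The Slc39a8 window at chr3:135825407-135825656 had 1, lying 19 to 13 bases before the start. That window lies inside the GENCODE span of Slc39a8 (135825279 to 135888572) and overlaps its exons. The Slc39a8 window at chr3:135825029-135825278 held 0. The Slc39a10 window at chr1:46925777-46926026 held 1 STAT match. It lies outside the GENCODE span of that gene (46807544 to 46892852), and the Slc39a10 window at chr1:46853619-46853868 held 0. No window was used for Slc39a14. A match describes letters in a window and not a bound site.

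Of the importer genes, Slc39a14 and Slc39a10 rose in both genotypes, with 95% intervals below that of Mt1 (1.78 to 2.34 and 0.82 to 1.36 against 2.98 to 3.66 on the log2 scale in Ppara-Flox hearts). Slc39a14 encodes ZIP14, which carries zinc, iron and manganese (chromosome 14, 70303469 to 70351425, minus strand, protein coding). It stood at 108, 93.6, 85.4 and 105 CPM in Ppara-Flox hearts under PBS and at 503, 381, 313 and 438 CPM after LPS. In PPARα-deficient hearts the values were 89.3, 100, 89.0 and 103 CPM, then 362, 422, 409 and 323 CPM. No LPS library overlapped a PBS library. The gene rose 4.18-fold in Ppara-Flox hearts (2.06 ± 0.13 SE, edgeR adjusted p = 8.58e-09) and 3.97-fold in PPARα-deficient hearts (1.99 ± 0.13 SE, adjusted p = 1.29e-08). The libraries highest in Slc39a14 after LPS were Ppara-Flox replicate 1 and PPARα-deficient replicate 2, which were not the highest in Mt1 or Mt2.

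Slc39a10 encodes ZIP10, a plasma membrane importer (chromosome 1, 46807544 to 46892852, minus strand, protein coding). Its levels were 10.9, 10.7, 10.4 and 13.8 CPM in Ppara-Flox PBS hearts and 26.1, 24.7, 19.5 and 27.4 CPM after LPS. In PPARα-deficient hearts they were 11.6, 12.7, 13.4 and 13.5 CPM, then 22.4, 23.4, 18.5 and 18.2 CPM. The groups did not overlap between treatments. The gene rose 2.13-fold in Ppara-Flox (1.09 ± 0.13 SE, edgeR adjusted p = 4.15e-06) and 1.61-fold in PPARα-deficient hearts (0.69 ± 0.13 SE, adjusted p = 0.000377). The difference between these rises was -0.40 (95% interval -0.78 to -0.02, unadjusted p = 0.0382) and did not pass over all genes (edgeR adjusted p = 0.851).

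Slc39a8 encodes ZIP8, an importer of zinc and manganese (chromosome 3, 135825279 to 135888572, plus strand, protein coding). It was the scarcest of the tested genes, at 0.512, 0.322, 0.788 and 2.05 CPM in Ppara-Flox PBS hearts and 2.76, 8.45, 1.71 and 0.379 CPM after LPS. These groups overlapped. The fitted rise (1.85 ± 0.67 SE, edgeR adjusted p = 0.0367) rested on single libraries. It was 0.81 without Ppara-Flox LPS replicate 2 (adjusted p = 0.308), and the call was also lost without Ppara-Flox PBS replicate 1, 2 or 3 (adjusted p = 0.0965, 0.0972 and 0.083) and with limma-voom (1.38, adjusted p = 0.203). In PPARα-deficient hearts the values were 0.715, 0.915, 1.05 and 0.919 CPM under PBS and 3.51, 2.47, 2.06 and 3.21 CPM after LPS, with no overlap. There the difference was 1.64 ± 0.67 (SE) with edgeR adjusted p = 0.0626, and DESeq2 called it (adjusted p = 0.0227). That SE comes from a fit to all 16 libraries, which pools the spread of all groups. With only the PPARα-deficient groups fitted, edgeR gave 1.65 (adjusted p = 0.000543). With only the Ppara-Flox groups fitted it gave 1.85 (adjusted p = 0.0967). In PPARα-deficient hearts Slc39a8 stayed uncalled under 18 of 21 alternatives.

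The tested exporter gene and the zinc sensor were not called by edgeR in either genotype. Slc30a1 encodes ZnT1, the plasma membrane zinc exporter (chromosome 1, 191906767 to 191913247, plus strand, protein coding). It had 28.4, 21.7, 23.9 and 24.5 CPM in Ppara-Flox hearts under PBS and 29, 28, 22 and 32.4 CPM after LPS, and the groups overlapped. The means were 24.6 ± 2.80 and 27.9 ± 4.31 CPM there, and 21.9 ± 2.52 and 24.6 ± 3.14 CPM in PPARα-deficient hearts. The LPS differences were 0.18 (95% interval -0.10 to 0.45, edgeR adjusted p = 0.305) and 0.17 (-0.10 to 0.44, adjusted p = 0.323), so both intervals end below those of Mt1. The antisense gene 1700034H15Rik overlaps its exons, with 4 to 40 counts per library. Mtf1 (chromosome 4, 124802104 to 124849800, plus strand, protein coding) was at 22.2 ± 2.79 and 20.2 ± 1.18 CPM in Ppara-Flox hearts, and at 22.1 ± 2.49 and 19.1 ± 0.700 CPM in PPARα-deficient hearts. Its differences were -0.14 (95% interval -0.35 to 0.08) and -0.22 (-0.43 to -0.00, edgeR adjusted p = 0.109). Its exons overlap 1110065P20Rik on the opposite strand, which had 193 to 883 counts. The second difference was called with upper-quartile scaling (-0.26, adjusted p = 0.0472) and without PPARα-deficient PBS replicate 1 (-0.29, adjusted p = 0.0362). Slc30a10, which encodes a manganese exporter (chromosome 1, 185454848 to 185468762, plus strand, protein coding), had a count in 3 of 16 libraries and at most 8 counts. Each library's floor of 12 counts, or 3 read pairs, stood for 0.159 to 0.183 CPM and covers counting error only, so its level was below that floor throughout and no fold change is given.

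Of the 7 tested genes, 5 rose in Ppara-Flox hearts and 4 in PPARα-deficient hearts, and none fell. Over all genes, 39.3% were called in Ppara-Flox hearts, 20.2% higher and 19.1% lower, and 37.7% in PPARα-deficient hearts, 19.4% higher and 18.3% lower. Groups did not overlap for 4 and 5 of the 7 genes, against 37.6% and 37.9% of all genes. With limma-voom the counts were 4 and 4, and with DESeq2 5 and 5.

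Scaled by transcript length (CPM per kilobase of the principal GENCODE M21 transcript), Mt1 was the most abundant of the set at 226 ± 22.3 in Ppara-Flox PBS hearts, followed by Mt2 at 31.0 ± 6.46 and Slc39a14 at 19.9 ± 2.08. Slc30a1 (4.70 ± 0.535), Mtf1 (2.92 ± 0.366), Slc39a10 (2.08 ± 0.284) and Slc39a8 (0.260 ± 0.220) came next on this scale. Mtf1 and Slc39a10 overlapped in their ranges, as did Mt2 and Slc39a14 in PPARα-deficient PBS hearts. After LPS the order in Ppara-Flox hearts was Mt1 (2257 ± 340 CPM per kilobase), Mt2 (1246 ± 210), Slc39a14 (83.0 ± 16.5), Slc30a1 (5.31 ± 0.821), Slc39a10 (4.44 ± 0.630), Mtf1 (2.65 ± 0.155) and Slc39a8 (0.941 ± 1.01). Slc39a10 had passed Mtf1 without overlap, and it overlapped Slc30a1.

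The genotypes were compared under each treatment. Under PBS, 0 of the 7 genes were called between PPARα-deficient and Ppara-Flox hearts with edgeR, and likewise 0 with DESeq2 and 0 with limma-voom. Over all genes edgeR called 0.433% there (0.0321% higher and 0.401% lower), and 3.99% did not overlap, against 0 of the 7. After LPS each of the 3 tools again called 0 of the 7, where edgeR called 1.23% of all genes (0.385% higher and 0.85% lower) and 5.32% did not overlap. For the difference between LPS effects each tool called 0 of the 7, and edgeR called 0% of all genes. Unadjusted p-values under 0.05 numbered 0, 0 and 1, the last being Slc39a10. The nearest to a difference under PBS was Mt1, at 101 ± 18.2 CPM in PPARα-deficient against 124 ± 12.2 CPM in Ppara-Flox hearts (-0.30, 95% interval -0.61 to 0.01, edgeR adjusted p = 0.915). After LPS the intervals were -0.43 to 0.19 for Mt1, -0.63 to 0.62 for Mt2 and -0.38 to 0.16 for Slc39a14. The difference between LPS effects was 0.17 for Mt1 (95% interval -0.26 to 0.61), 0.01 for Mt2 (-0.88 to 0.90) and -0.07 for Slc39a14 (-0.46 to 0.31). These intervals give the range of differences that the fit allows and are not limits of detection. For Slc39a10 the interval of the difference between LPS effects (-0.78 to -0.02) lay below 0, and the gene was still not called. The widest interval of that difference was that of Slc39a8 (-2.16 to 1.74).

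**Figure D3:**
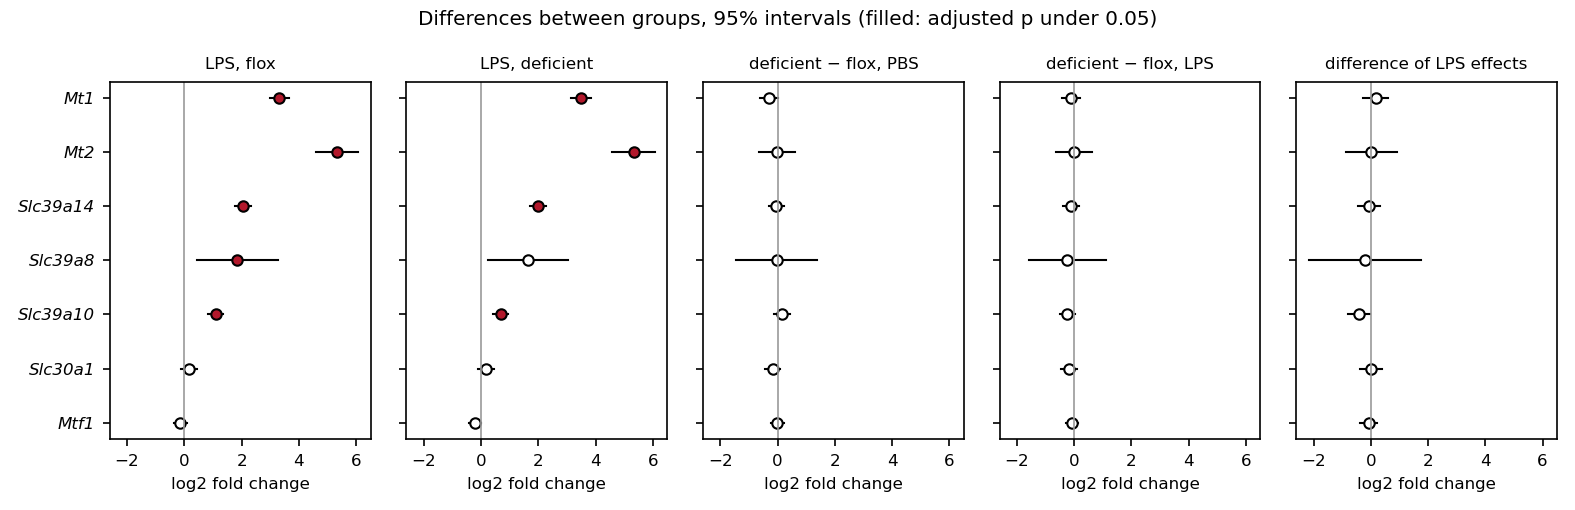
Log2 fold changes of 7 genes with 95% intervals in the LPS comparison of each genotype, the PPARα-deficient minus Ppara-Flox comparison under each treatment, and the difference between the LPS effects; filled points have an adjusted p under 0.05. Filled points occur only in the LPS panels, 5 in Ppara-Flox and 4 in PPARα-deficient hearts.

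The rest of the zinc transporter families was counted from lists of all Slc39a and Slc30a genes. Of 14 importer genes 12 were tested. After LPS 8 rose and 1 fell in Ppara-Flox hearts, and 8 rose and 1 fell in PPARα-deficient hearts, with median log2 fold changes of 0.97 and 0.69 against 0.008 and 0.008 over all genes. Over all genes 20.2% were called higher and 19.1% lower in Ppara-Flox hearts, and 19.4% and 18.3% in PPARα-deficient hearts. The 8 that rose were not the same genes in both genotypes. Slc39a8 was among them only in Ppara-Flox hearts, a call kept in 12 of 21 alternatives. Slc39a13 was among them only in PPARα-deficient hearts (0.29 on the log2 scale, kept in 15 of 21 alternatives). In Ppara-Flox hearts Slc39a13 was at -0.22 and not called. Slc39a1, which encodes the plasma membrane importer ZIP1, rose from 56.7 ± 3.04 to 156 ± 10 CPM in Ppara-Flox hearts (1.46 ± 0.09 SE, edgeR adjusted p = 3.26e-09). It rose by 1.49 ± 0.09 (SE) in PPARα-deficient hearts. Slc39a4, which encodes the intestinal importer ZIP4, was among those that rose with at most 0.0718 CPM in any PBS library and 0.165 to 0.461 CPM in the LPS libraries, so its fold change is not given. Its call in PPARα-deficient hearts was lost without PPARα-deficient PBS replicate 2 or 3 or LPS replicate 4 (edgeR adjusted p = 0.0657, 0.0667 and 0.0686). Slc39a11 rose by 1.16 ± 0.17 (SE) and 0.70 ± 0.17 (SE) in the respective genotypes. The gene that fell was Slc39a2 (-1.79 ± 0.32 SE and -1.62 ± 0.32 SE), which was at 1.34 ± 0.284 CPM in Ppara-Flox PBS hearts.

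Of 10 exporter genes 8 were tested, and in each genotype 2 rose and 1 fell (median 0.42 and 0.28 on the log2 scale). These counts are near the share of all genes called, 20.2% higher and 19.1% lower in Ppara-Flox hearts and 19.4% and 18.3% in PPARα-deficient hearts, so they are no result about the exporters as a group. Slc30a4 rose by 0.85 ± 0.17 (SE) and 0.90 ± 0.17 (SE). Slc30a7, which encodes a transporter that loads zinc into the Golgi, rose by 1.47 ± 0.32 (SE) and 1.05 ± 0.32 (SE), the second losing its call without PPARα-deficient PBS replicate 2 (0.89, edgeR adjusted p = 0.0507). Slc30a9, which encodes the mitochondrial zinc exporter, fell by 0.34 and 0.42 on the log2 scale (edgeR adjusted p = 0.00739 and 0.00159). Slc30a6 was at -0.28 ± 0.13 (SE, adjusted p = 0.106) in Ppara-Flox hearts, and upper-quartile scaling called it (-0.33, adjusted p = 0.0495). Of the remaining metallothioneins, Mt4 had 0 counts in all libraries. Mt3 was at 0.373 ± 0.186 CPM under PBS and 1.05 ± 0.149 CPM after LPS in Ppara-Flox hearts (1.49 ± 0.37 SE, adjusted p = 0.00428). In PPARα-deficient hearts Mt3 was at 0.800 ± 0.327 and 1.51 ± 0.218 CPM (0.91 ± 0.36 SE, edgeR adjusted p = 0.0563), which DESeq2 (adjusted p = 0.0382) and limma-voom (adjusted p = 0.0167) called.

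Among these transporters 1 gene was called between the genotypes in the fit to all 16 libraries, Slc39a13 after LPS, and it was named after that call was seen. It encodes ZIP13, an importer of intracellular membranes. Its levels were 17.6, 18.3, 21 and 21.4 CPM in Ppara-Flox and 28.8, 27.5, 24.5 and 26.1 CPM in PPARα-deficient hearts given LPS, with no overlap (0.45 ± 0.09 SE, edgeR adjusted p = 0.019). The call was lost without any of 4 single libraries, Ppara-Flox LPS replicates 1 and 2 (adjusted p = 0.0837 and 0.0811) and PPARα-deficient LPS replicates 1 and 2 (adjusted p = 0.0632 and 0.0648). It was also lost in a fit to the 8 LPS libraries (adjusted p = 0.11). Its difference between LPS effects was 0.51 ± 0.13 (SE, edgeR adjusted p = 0.457). Under PBS, Slc30a7 was higher in PPARα-deficient hearts by 0.54 ± 0.32 (SE, edgeR adjusted p = 1), and leaving out Ppara-Flox PBS replicate 1, at 9.33 CPM against 2.93 to 3.39 CPM in the others of its group, gave 1.11 (adjusted p = 0.0358).

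**Figure D4:**
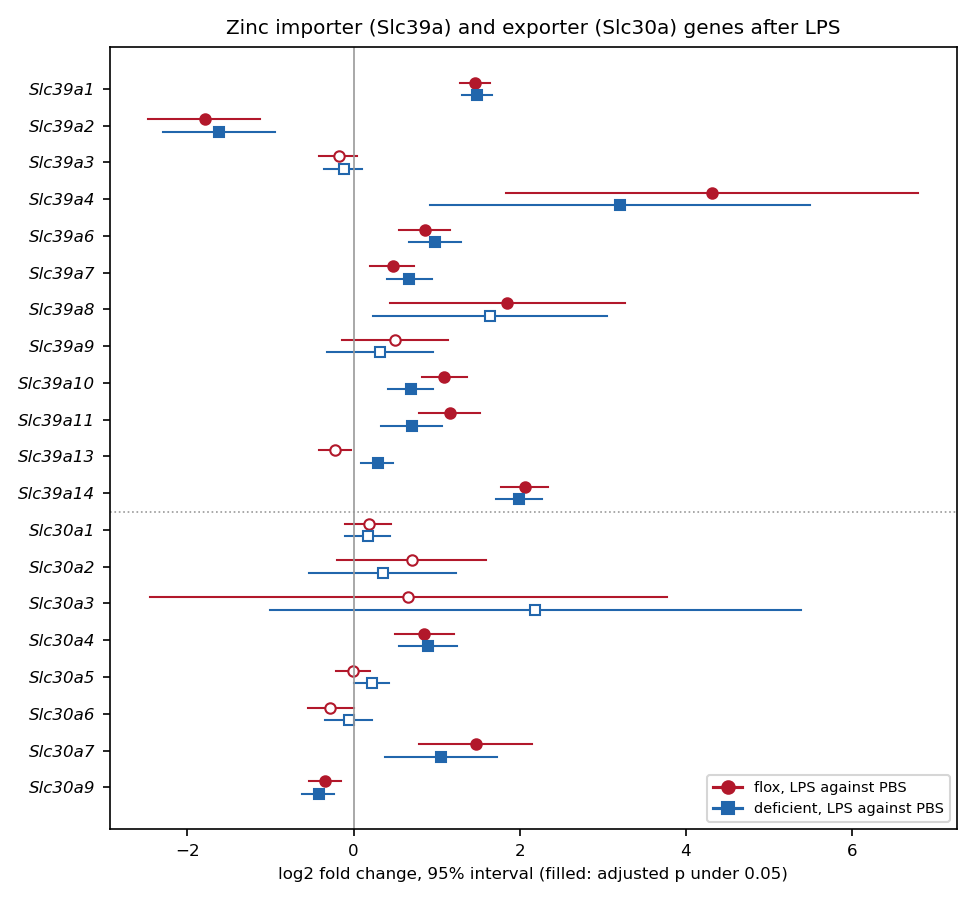
Log2 fold change after LPS with 95% intervals for 12 importer genes (Slc39a, above the dotted line) and 8 exporter genes (Slc30a, below it); circles are Ppara-Flox and squares PPARα-deficient hearts, and filled symbols have an adjusted p under 0.05. To the right of 0, 8 of the 12 importer genes and 2 of the 8 exporter genes are filled in each genotype, beside 20.2% and 19.4% of all genes called higher in Ppara-Flox and PPARα-deficient hearts; the difference between the lists was not tested.

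The genes nearest to each profile were found by the root mean square difference of centred log2 CPM over the 16 libraries, among 10011 other genes averaging at least 2 on the log2 CPM scale. They are given as a description. Nearest to Mt1 were Susd2 (0.28), Zfp697 (0.30) and Cdo1 (0.34), the last encoding cysteine dioxygenase. Nearest to Mt2 were Lrg1 (0.39), Cfb (0.45), which encodes complement factor B, and Slc10a6 (0.56). Nearest to Slc39a14 were Fmnl2 (0.10), Zc3h12a (0.12), which encodes an RNase that limits inflammatory transcripts, and Steap4 (0.16), which encodes a metalloreductase. Mt1 and Mt2 differed from each other by 1.05 on this measure. It takes in the size of the LPS rise, which was 3.32 for Mt1 and 5.33 for Mt2 in Ppara-Flox hearts. Of the genes of the set searched, Mt1 was the nearest to Mt2, followed by Slc39a14 (1.74). Slc39a14 (0.75) was nearer to Mt1 than Mt2 was. Lrg1 and Cfb rose by 5.15 and 5.82 on the log2 scale in Ppara-Flox hearts, and Susd2 by 3.33.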

How the data were processed

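The authors deposited 1 table per library, with an estimated count (expected count) for each gene symbol in whole numbers and no scaling between libraries. Tools listed without roles in the submitters' processing notes are fastp 0.23.2, StringTie 1.3.3b, HISAT and DESeq2 1.30.1, and the build is GRCm38. The annotation and the counter are not given in the sources used here. The labels name the heart as tissue, while their extraction text speaks of islets. Of 55421 lines, 27 with symbols turned into dates (0.0644% to 0.0861% of counts) were left out and 116 repeated lines were summed. A multiple of 4 exceeded both neighbours in 10 of 10 cases up to 40.

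Genes kept by filterByExpr were scaled by TMM and fitted as 4 group means over 16 libraries with edgeR 4.0.16 (R 4.3.3, glmQLFit, glmQLFTest). The SE is the log2 fold change divided by the root of F. DESeq2 1.42.0 and limma 3.58.1 were alternatives, besides other scalings, filters, thresholds, number blocks and leaving out libraries. The model was tested on simulated data. Figures used Python 3.11.15 and matplotlib 3.10.9. Coordinates came from GENCODE M21 and windows from RefSeq, which held 7 of the 8 genes. Named genes were the 8 genes, Ppara, up to 4 of each list with the smallest adjusted p in the Ppara-Flox LPS comparison, and 3 nearest genes for Mt1, Mt2 and Slc39a14. Slc39a2, Slc39a4, Slc39a13, Gm45774, Socs3 and Il6 were added after their values were seen. Members and lists were chosen with earlier results of these data known.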

Additional observations from a re-analysis of the deposited data

Results flagged for a closer look

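Of 28 gene and group combinations searched for a library standing apart, 1 was found, and chance gives about 1 in 20. Slc39a10 in Ppara-Flox PBS replicate 4 was at 13.8 CPM, while the other 3 libraries of that group lay between 10.4 and 10.9 CPM. The gap took 0.869 of the group's range. Without that library the LPS rise of Slc39a10 in Ppara-Flox hearts was 1.19 on the log2 scale.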

How the results depend on the processing

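The counts of called genes among the 7 tested stayed within 1.5 times under every alternative run. They were 4 to 5 in each LPS comparison and 0 in each genotype comparison and for the difference between LPS effects. The same 4 genes, Mt1, Mt2, Slc39a14 and Slc39a10, were called under all alternatives in both LPS comparisons, and Slc39a8 or, in PPARα-deficient hearts, Mtf1 made up the difference. Mt1 ranged from 3.22 to 3.39 and from 3.35 to 3.59 on the log2 scale in the respective genotypes, Mt2 from 5.23 to 5.48 and from 5.08 to 5.74. With the replicate number as a block, 4 genes were called in each LPS comparison and Slc39a8 was not (adjusted p = 0.103). The block also ended the calls of Slc39a13 (0.0542) and Hmox1 (0.0699) between genotypes after LPS, and after LPS those of Slc31a1 in Ppara-Flox (0.0623) and Atox1 in PPARα-deficient hearts (0.0551), and no other call on a named gene. Same-numbered libraries correlated by -0.066 to 0.075 in their deviations from group means, and not every library correlated best with its own number. Such correlations cannot show whether same-numbered libraries shared a handling step. In both PBS groups, replicates 1 and 2 had header numbers of 957 to 971, and replicates 3 and 4 had 1069 to 1075. With the 2 number series of the PBS headers as a block, an alternative chosen after seeing the data, 0 of the 7 genes were called between genotypes. Over all genes, DESeq2 called 48 higher and 135 lower between genotypes under PBS, against 6 and 75 by edgeR. After LPS it called 200 and 244 against 72 and 159, the block called 45 higher, and the difference between LPS effects had 26 and 29 calls against 0 and 0. Genes called higher between genotypes under PBS numbered 12 with only those groups fitted, 13 with the number series and 2 at adjusted p under 0.01. After LPS they numbered 44 with no filter, 25 with only those groups, 18 at 0.01, 44 when PPARα-deficient LPS replicate 3 and replicate 4 of the Ppara-Flox LPS group were both left out, and 33 to 79 when single libraries were left out, being 36 and 33 without Ppara-Flox LPS replicates 1 and 2 and 39 and 41 without PPARα-deficient LPS replicates 3 and 4. The remaining alternatives gave the difference between LPS effects at most 4 calls in a direction. Depth limits Slc30a10, which had at most 8 counts. Slc39a8 had 29 to 589 counts in the Ppara-Flox LPS libraries, and the cause of that spread was not tested.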

Other observations

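Other metal and stress genes were counted from lists. Over all genes, 20.2% were called higher and 19.1% lower after LPS in Ppara-Flox hearts, and 19.4% and 18.3% in PPARα-deficient hearts. The median over all genes was 0.008 on the log2 scale in each genotype. These lists were chosen with earlier results of these data known. Of 15 tested genes of iron and manganese handling 10 rose and 3 fell after LPS in each genotype (median 1.44 and 0.85 on the log2 scale). Cp, which encodes the copper-carrying ferroxidase ceruloplasmin, rose from 71.6 ± 13.7 to 294 ± 14.5 CPM in Ppara-Flox hearts (2.04 ± 0.13 SE, edgeR adjusted p = 7.57e-09), and Steap4 rose by 1.92 ± 0.15 (SE). Of 7 tested copper genes 1 fell in Ppara-Flox hearts, the copper importer gene Slc31a1 (-0.24 ± 0.09 SE, adjusted p = 0.0423), and 1 rose in PPARα-deficient hearts, Atox1 (0.33 ± 0.13 SE). The medians were 0.01 and 0.16. These counts are not above the share of all genes called, so they are no result about the copper genes as a group. In PPARα-deficient hearts Slc31a1 was at -0.23 and not called. There DESeq2 (adjusted p = 0.0464) and upper-quartile scaling (edgeR adjusted p = 0.0234) called it, and 16 of 21 alternatives left it uncalled. Atox1 was at 0.19 in Ppara-Flox hearts and not called. The differences between LPS effects were 0.01 for Slc31a1 and 0.14 for Atox1, neither called, so these calls do not separate the genotypes. The Slc31a1 call was lost without Ppara-Flox PBS replicate 1 or 2 (adjusted p = 0.0833 and 0.132) or Ppara-Flox LPS replicate 3 or 4 (0.0822 and 0.0945). The Atox1 call was lost without PPARα-deficient PBS replicate 1, 2, 3 or 4 (adjusted p = 0.0843, 0.078, 0.125 and 0.0667) or LPS replicate 1, 2 or 4 (0.114, 0.116 and 0.0797).

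Of 10 glucocorticoid-responsive genes 7 rose and 1 fell in Ppara-Flox hearts, and 6 rose in PPARα-deficient hearts (median 0.83 and 0.90 on the log2 scale). Fkbp5, a co-chaperone gene of the glucocorticoid receptor, rose from 59.6 ± 7.07 to 374 ± 18.6 CPM (2.65 ± 0.16 SE) in Ppara-Flox hearts. Of 14 genes of interleukin 6 and STAT3 signalling 11 rose and 2 fell in each genotype (median 1.65 and 1.49, Il6 itself being at 0 in the 4 Ppara-Flox PBS libraries and at 2.77 to 4.58 CPM after LPS, above the median also when set against the floor of at most 0.183 CPM), with Stat3 at 1.86 ± 0.12 (SE) and 1.57 ± 0.12 (SE). Of 12 oxidative stress genes 9 rose and 1 fell in each genotype (median 0.88 and 0.80), with the glutathione reductase gene Gsr at 1.05 ± 0.09 (SE) and 0.95 ± 0.09 (SE).

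Hmox1, which encodes the haem-degrading enzyme heme oxygenase 1 and belongs to both the iron and the oxidative stress list, was called between the genotypes after LPS. It stood at 114, 75.9, 47.2 and 66.5 CPM in Ppara-Flox and 35.2, 29.9, 37.7 and 24.7 CPM in PPARα-deficient hearts (-1.25 ± 0.26 SE, edgeR adjusted p = 0.0227), with no overlap. The call was lost without Ppara-Flox LPS replicate 1 or 2 (adjusted p = 0.0862 and 0.0586) and without PPARα-deficient LPS replicate 2 or 4 (0.0725 and 0.088). It was also lost in a fit to the 8 LPS libraries (0.0513) and without Ppara-Flox LPS replicate 4 together with replicate 3 of the PPARα-deficient LPS group (0.0504). Its difference between LPS effects was -1.96 ± 0.37 (SE, edgeR adjusted p = 0.157) and was called by DESeq2 (-1.95, adjusted p = 0.00028).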
